A study of Mus musculus with 6 samples.

Results

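Before a class II molecule of the major histocompatibility complex (MHCII) can show a peptide to T cells, its invariant chain must be cut away and a peptide must take its place, and 8 genes of these steps are described here. They were taken by symbol from the deposited tables, which hold 30803 rows each, and all 8 were found, each in 1 row. They are the 5 chains of the H2-DM and H2-DO molecules (H2-DMa, H2-DMb1, H2-DMb2, H2-Oa and H2-Ob) and 3 endosomal enzymes (Ctss, Lgmn and Ifi30). RNA was sequenced from bone marrow cells of wild-type mice aged 12 months, labelled as hematopoietic stem cells, the cells from which all blood lineages arise. The cells had been sorted by MHCII into a high fraction (MHCII-hi, 3 libraries) and a low fraction (MHCII-lo, 3 libraries), with no treatment named in either. The sources used here give neither the gates of the sort nor the number of mice, and do not say whether libraries came from separate mice. The p-values therefore cover the spread between libraries, which may be technical.

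Newly made class II chains travel to endosomes with the invariant chain, Cd74, filling their groove. Endosomal proteases cut the invariant chain down to a short remnant, CLIP, and H2-DM then removes CLIP and helps peptides that bind well to stay. H2-DO binds H2-DM and restrains it, mainly in B cells and some dendritic cells. Cathepsin S and legumain are cysteine proteases of endosomes, and the product of Ifi30 reduces disulfide bonds of antigens there. Dendritic cells, B cells and macrophages are best known for this machinery.

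The 5 chain genes lie close together in the MHC on chromosome 17 (GRCm38), on the same strand, in the order H2-Oa (34092340 to 34095234), H2-DMa (34119541 to 34139101), H2-DMb2 (34143307 to 34151555), H2-DMb1 (34153072 to 34160230) and H2-Ob (34238903 to 34254414). The enzymes lie elsewhere: Ctss on chromosome 3 (95526786 to 95556403), Lgmn on chromosome 12 (102394084 to 102439813) and Ifi30 on chromosome 8 (70762774 to 70766663). Class II promoters share an X box and a Y box, at which a complex of RFX, NF-Y and CREB factors recruits the coactivator CIITA. The promoter table from RefSeq (GRCm38.p6) covers 250 bases before to 50 after annotated starts, and windows for all 8 genes were found in it. Stretches of 3 of them, with that of the class II chain H2-Eb1, are shown because each holds a match to X box letters followed by Y box letters, both in capitals.
H2-DMb1: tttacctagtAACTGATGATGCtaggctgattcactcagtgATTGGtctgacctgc
H2-DMb2: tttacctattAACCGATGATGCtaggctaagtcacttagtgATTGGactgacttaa
H2-Ob: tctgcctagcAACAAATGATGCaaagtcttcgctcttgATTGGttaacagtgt
H2-Eb1: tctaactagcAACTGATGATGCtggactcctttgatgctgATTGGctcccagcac
They are plus-strand reads of chr17:34153089-34153144, chr17:34145118-34145173, chr17:34238810-34238862 and chr17:34305768-34305822. The Y letters searched were ATTGG. The X letters were AACNNATGATGC, the letters that these 4 windows share from 5 bases before ATGATGC onwards, with N where they differ, so that a match in these 4 is given by construction. Both strands were searched, and the X and Y letters did not overlap. The X letters occurred in 13 of 32851 windows (0.0396%) and the Y letters in 37.4%. The X letters followed within 60 bases by the Y letters occurred in 6 windows (0.0183%), those of H2-DMb1, H2-DMb2, H2-Ob, H2-Eb1, Gm36553 and Olfr582. The gap was 19 bases in both H2-DMb genes and 16 in H2-Ob. The window of H2-Oa and those of H2-DMa, Lgmn, Ctss and Ifi30 held no match to these X letters. Neither did that of the class II chain H2-Aa, so the letters miss a class II chain gene as well. A missing match says only that these letters are not in those windows. The Ctss window (plus strand, chr3:95526745-95526799) is shown for 2 copies of GAAA with 2 bases between them, letters like those of the response element that interferon regulatory factors bind, in capitals.
Ctss: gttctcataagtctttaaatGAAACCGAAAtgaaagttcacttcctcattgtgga
Such a pair, on either strand, was present in 3.44% of all windows and in no window of the other 7 genes. A match is a description of letters and was not tested as a binding site.

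Levels are in FPKM, fragments for each kilobase of a transcript relative to the size of the library, so that levels of different genes can be ranked. Each log2 fold change sets MHCII-hi over MHCII-lo after 1 was added to every FPKM, so changes of low genes come out too small. Adjusted p-values are from limma with Benjamini-Hochberg adjustment over the 12037 genes that averaged 1 FPKM or more. All 8 genes passed that limit, and a call means an adjusted p under 0.05. Of the 8, 6 were lower in MHCII-hi, none was higher and 2 did not pass the test. Among all tested genes, 60.9% were called, 40.6% lower and 20.4% higher. This balance depends on scaling: after median-ratio scaling 3392 genes were higher and 3123 lower, and with neutrophil markers left out of the total 3262 were higher and 3243 lower. The median log2 fold change was −0.57 over the 8 genes and −0.12 over all tested genes. The values of the fractions did not overlap in the same 6 genes, all wholly lower in MHCII-hi. Among all tested genes the fractions were apart in 67.6%, of which those wholly lower in MHCII-hi were 45.0% of tested genes and those wholly higher 22.6%. In bulk samples, fewer cells of a type and less RNA per cell cannot be told apart.

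**Figure D1:**
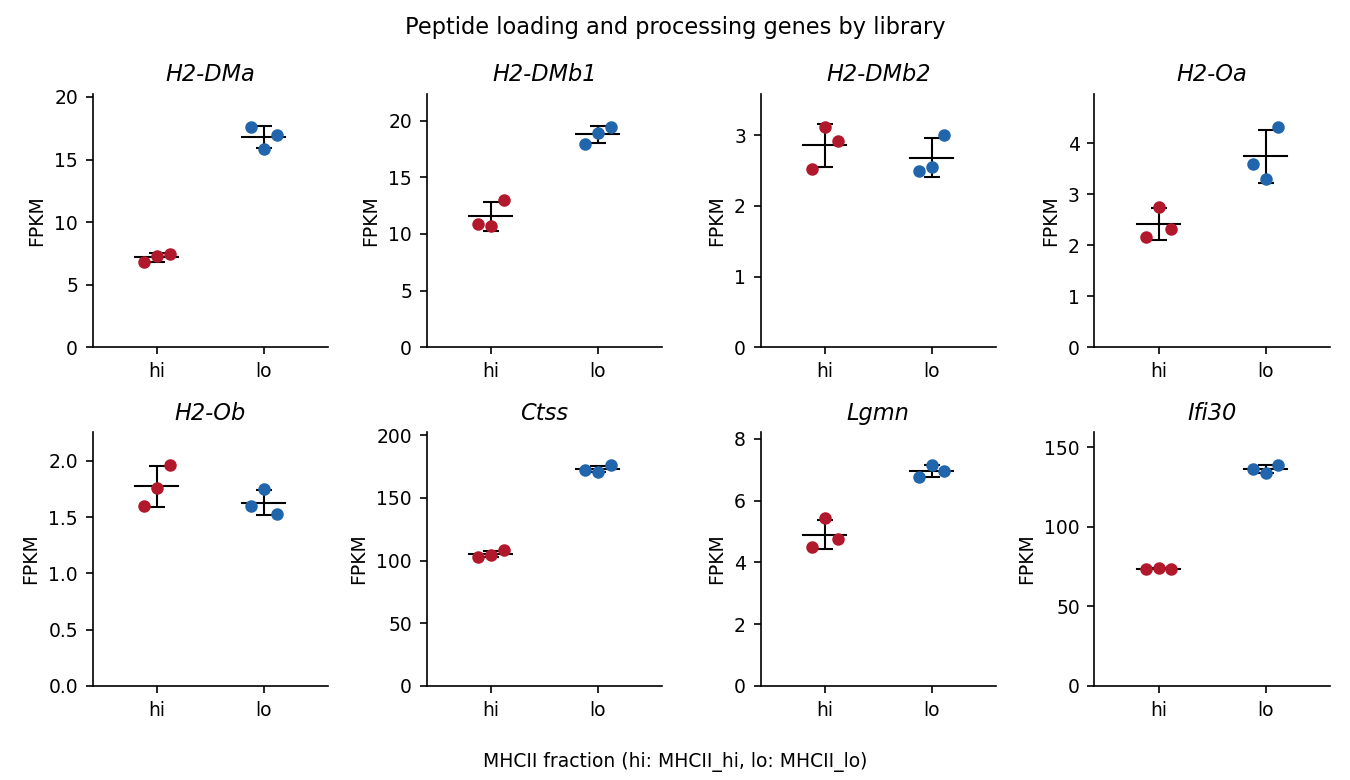
FPKM of each gene in each library (points; horizontal line and bars, mean and SD of 3 libraries), with MHCII-hi on the left of each panel and MHCII-lo on the right, and a separate axis from 0 for each gene. The points of the fractions are apart in 6 panels and overlap for H2-DMb2 and H2-Ob.

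H2-DM is a pair of an alpha and a beta chain, and H2-DMa and H2-DMb1, 1 gene of each chain, were among the 6 lower in MHCII-hi. H2-DMa, which encodes that alpha chain, had 6.78, 7.32 and 7.42 FPKM in MHCII-hi, against 17.63, 15.87 and 16.92 FPKM in MHCII-lo. The highest MHCII-hi value was far below the lowest MHCII-lo value. The MHCII-hi mean of 7.17 ± 0.344 FPKM was 0.427 of the MHCII-lo mean of 16.8 ± 0.885 FPKM (SD, n = 3 each), with a log2 fold change of −1.12 (SE 0.0519, limma adjusted p 3.37e-06). Only 104 of the 12037 tested genes, H2-DMa included, had a log2 fold change this low or lower. H2-DMa overlaps Brd2 on the opposite strand by 360 exon bases, and Brd2, a chromatin reader, was also lower in MHCII-hi (31.9 ± 0.624 against 45.05 ± 0.752 FPKM). The sources do not say if strand was used in counting, and the part of such reads in the value of H2-DMa was not tested.

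H2-DMb1, a gene for the beta chain, had 10.92, 10.74 and 12.99 FPKM in MHCII-hi, against 17.96, 18.94 and 19.47 FPKM in MHCII-lo. All 3 MHCII-hi libraries lay below all 3 MHCII-lo libraries. The log2 fold change was −0.66 (SE 0.0726, limma adjusted p 0.000253). H2-DMb2, the neighbouring copy of the beta chain gene in mice, had 2.52, 3.12 and 2.92 FPKM in MHCII-hi, against 2.49, 2.55 and 3.0 FPKM in MHCII-lo. Its groups overlapped, and its log2 fold change was 0.07 with a 95% interval of −0.14 to 0.27 (limma adjusted p 0.531). This interval lies wholly above that of H2-DMb1, −0.83 to −0.49, although the difference between the copies was not itself tested.

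The beta chain copies are alike, so reads can be shared between them and each value is uncertain. Their main GENCODE transcripts were 93.9% identical over 1255 aligned bases, and 27.2% of the 50-base windows and 13.7% of the 100-base windows of H2-DMb1 were found unchanged in H2-DMb2. Summed into 1 feature they averaged 14.4 ± 1.32 FPKM in MHCII-hi and 21.5 ± 1.01 FPKM in MHCII-lo (SD, n = 3 each). The sum was lower in MHCII-hi by a log2 fold change of −0.55 (SE 0.0667, limma adjusted p 0.00042). H2-DMb1 made up 77.5 to 81.6% of this sum in MHCII-hi libraries and 86.6 to 88.1% in MHCII-lo libraries.

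H2-DO, the restraint on H2-DM, was represented at a few FPKM, and of its chain genes only that of the alpha chain passed the test. H2-Oa, the alpha chain gene, had 2.17, 2.76 and 2.33 FPKM in MHCII-hi, against 3.60, 3.31 and 4.33 FPKM in MHCII-lo. The groups were apart, although libraries varied by 12.6% in MHCII-hi and 14.03% in MHCII-lo (SD over mean). H2-Oa was lower by a log2 fold change of −0.47 (SE 0.101, limma adjusted p 0.0061). It shares 321 exon bases with the antisense gene BC051537, which stayed at or below 0.19 FPKM in all 6 libraries.

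H2-Ob, the beta chain gene of H2-DO, had 1.6, 1.76 and 1.96 FPKM in MHCII-hi, against 1.6, 1.75 and 1.53 FPKM in MHCII-lo. The groups overlapped, and the log2 fold change was 0.08 with a 95% interval of −0.11 to 0.27 (limma adjusted p 0.427). The interval includes no change and does not show that the levels were equal. H2-Ob and H2-DMb2 carry the X and Y letters printed above, as do H2-DMb1, which was lower, and H2-Eb1, which was higher.

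The enzymes included the most abundant of the 8 transcripts, and all 3 were lower in MHCII-hi. Ctss encodes cathepsin S, which makes the last cuts in the invariant chain in dendritic cells and B cells. It had 103.20, 104.43 and 108.07 FPKM in MHCII-hi, against 172.51, 170.80 and 176.10 FPKM in MHCII-lo. Libraries of a fraction lay close together and the fractions far apart, with a log2 fold change of −0.71 (SE 0.0245, limma adjusted p 8.36e-07).

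Ifi30 encodes GILT, the thiol reductase that interferon gamma induces. It had 73.62, 74.00 and 73.41 FPKM in MHCII-hi, against 136.32, 133.65 and 138.82 FPKM in MHCII-lo. Its MHCII-hi mean was 0.541 of that in MHCII-lo. The log2 fold change was −0.88 (SE 0.0216, limma adjusted p 1.92e-07).

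Lgmn encodes legumain, a protease that cuts after asparagine and acts early on antigens and on the invariant chain. It had 4.51, 5.44 and 4.76 FPKM in MHCII-hi, against 6.76, 7.15 and 6.97 FPKM in MHCII-lo. The groups did not overlap, and the log2 fold change was −0.43 (SE 0.0651, limma adjusted p 0.00115).

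By level, Ctss came first and Ifi30 second in both fractions, and together they took 84.9 to 86.1% of the summed FPKM of the 8 genes in MHCII-hi and 85.8 to 86.1% in MHCII-lo. H2-DMb1, H2-DMa and Lgmn followed in that order in both. In MHCII-hi the next were H2-DMb2 (2.85 ± 0.306 FPKM) and H2-Oa (2.42 ± 0.305 FPKM), whose values overlapped, and in MHCII-lo H2-Oa (3.75 ± 0.526 FPKM) stood above H2-DMb2 (2.68 ± 0.279 FPKM) without overlap. H2-Ob was last in both. The 8 genes together summed to 205 to 214 FPKM in MHCII-hi libraries and 354 to 367 FPKM in MHCII-lo libraries.

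RNA of the class II chains ran in the direction of the sort, opposite to the loading and processing genes called lower. These chains form the molecule that was sorted on, so their calls are not independent of the sort. H2-Aa, H2-Ab1 and H2-Eb1, chains of the class II molecules, and Cd74 were all called higher in MHCII-hi, with log2 fold changes of 0.77, 0.71, 1.21 and 0.45. H2-Aa had 12.64, 14.81 and 13.66 FPKM in MHCII-hi, against 8.21, 7.21 and 7.39 FPKM in MHCII-lo. H2-Eb2 (0.563 ± 0.0681 FPKM in MHCII-hi and 0.140 ± 0.0200 FPKM in MHCII-lo) and Ciita, the coactivator gene (0.543 ± 0.0777 FPKM in MHCII-hi and 0.243 ± 0.0115 FPKM in MHCII-lo), were under the limit for testing.

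**Figure D2:**
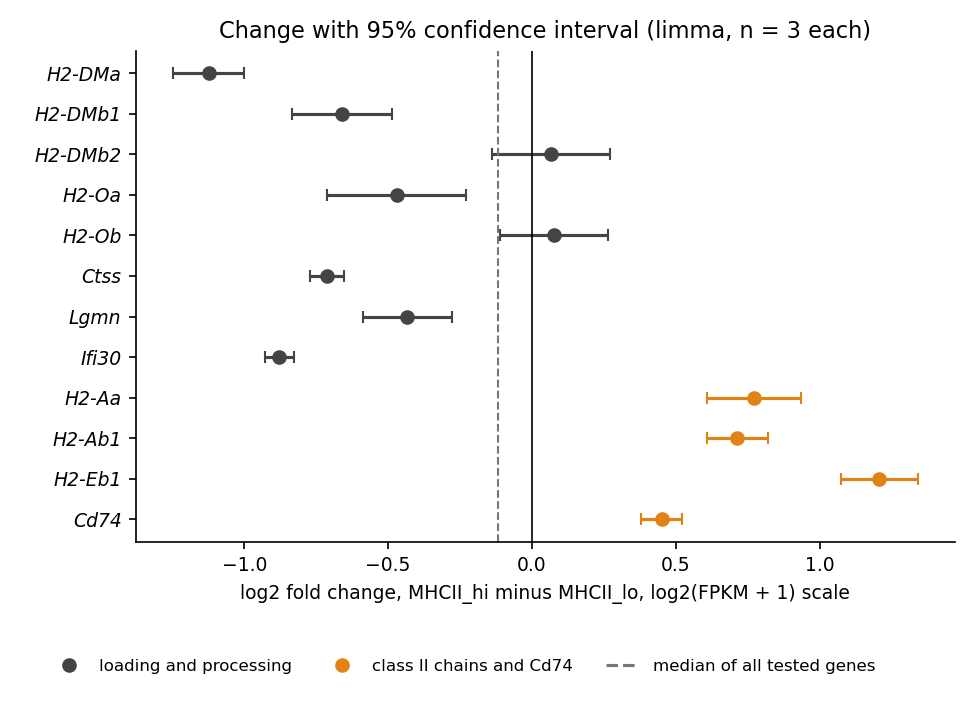
Log2 fold change (MHCII-hi minus MHCII-lo, log2(FPKM + 1) scale) with its 95% confidence interval from limma, for the 8 loading and processing genes and, below them, 3 class II chain genes and Cd74; the dashed line is the median of all tested genes. The intervals of 6 loading and processing genes lie below 0, those of H2-DMb2 and H2-Ob span 0, and those of the chains and Cd74 lie above 0.

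Levels of 2 genes were also set against each other within each library, for 7 pairs. The ratios printed are of FPKM as deposited, and each pair was tested by an exact two-sided permutation test of log2 ratios with 1 added to every FPKM, which still depend on scaling. With 3 against 3 libraries the exact test cannot go below p = 0.1. Each of the 7 pairs gave 0.1, before and after adjustment over the pairs, because in each pair the 3 ratios of one fraction lay wholly above those of the other. The ratio of H2-DMa to H2-Aa was 0.536, 0.494 and 0.543 in MHCII-hi, against 2.15, 2.20 and 2.29 in MHCII-lo. H2-DMa RNA was thus below H2-Aa RNA in every MHCII-hi library and above it in every MHCII-lo library. The ratio of Ctss to its substrate Cd74 was 1.32, 1.395 and 1.38 in MHCII-hi, against 3.08, 2.96 and 3.21 in MHCII-lo. The 2 genes of each of these pairs were apart between the fractions in opposite directions. The separation of their ratios therefore follows from the single genes and is no further result.

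Within H2-DM, the ratio of H2-DMa to H2-DMb1 averaged 0.625 ± 0.0553 in MHCII-hi and 0.896 ± 0.0756 in MHCII-lo (SD, n = 3 each). Within H2-DO, the ratio of H2-Oa to H2-Ob averaged 1.37 ± 0.190 in MHCII-hi and 2.32 ± 0.474 in MHCII-lo. The ratio of H2-Oa to H2-DMa, a gene of the restraint over a gene of the catalyst, was higher in MHCII-hi, at 0.337 ± 0.0348 against 0.223 ± 0.0287 in MHCII-lo. Among the enzymes the ratios moved less. Ifi30 stood at 0.7004 ± 0.0185 of Ctss in MHCII-hi and 0.787 ± 0.00402 in MHCII-lo, and Lgmn at 0.0466 ± 0.00475 of Ctss in MHCII-hi and 0.0402 ± 0.00144 in MHCII-lo.

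**Figure D3:**
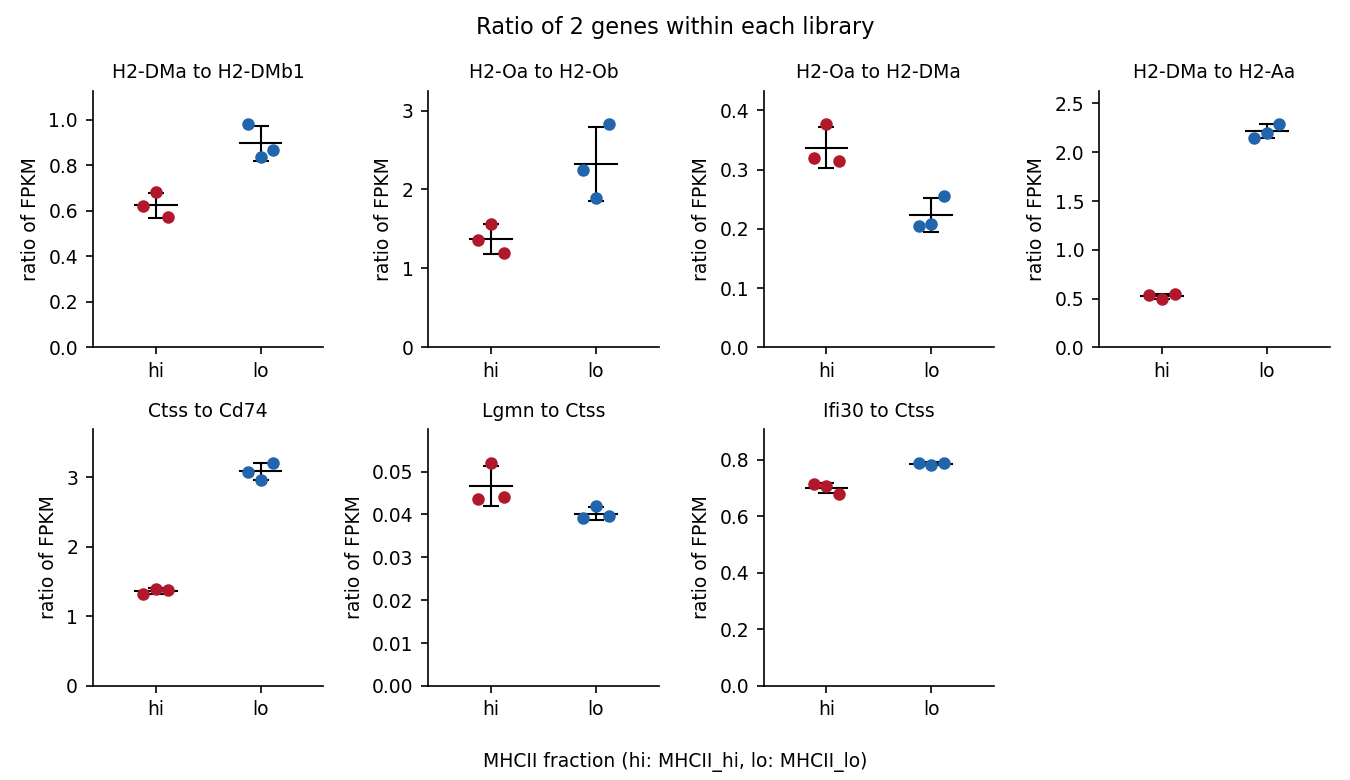
Ratio of the FPKM of 2 genes within each library (points; line and bars, mean and SD of 3 libraries), MHCII-hi left and MHCII-lo right, with a separate axis from 0 for each of 7 pairs. The fractions are apart in every panel, and the widest gap is that of H2-DMa to H2-Aa, at 0.494 to 0.543 in MHCII-hi and 2.15 to 2.29 in MHCII-lo.

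Other genes of the pathway were taken from 6 lists. Their counts are to be read beside the shares over all tested genes, 40.6% lower and 20.4% higher, and several lie near them. Of 7 tested class II transcription factor genes, 1 was higher, 2 were lower and 4 did not pass the test. Nfyb, an NF-Y subunit, was higher (10.5 ± 0.243 FPKM in MHCII-hi and 8.96 ± 0.593 FPKM in MHCII-lo). The other NF-Y subunits, Nfya (log2 fold change −0.17) and Nfyc (−0.14), were lower by little more than the median gene, and neither call held after median-ratio scaling or with neutrophil markers left out of the total.

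Of 12 tested endosomal proteases outside the 8 genes, 8 were lower and 3 higher. Ctsh, cathepsin H, an aminopeptidase, had 20.87, 20.62 and 21.00 FPKM in MHCII-hi, against 38.91, 40.89 and 38.78 FPKM in MHCII-lo. Its log2 fold change of −0.89 was close to that of Ifi30. Ctse, an aspartic protease, averaged 12.8 ± 0.446 FPKM in MHCII-hi and 20.4 ± 0.0586 FPKM in MHCII-lo. Ctsd, the main aspartic protease of lysosomes, was higher in MHCII-hi (209 ± 5.22 FPKM, against 152 ± 4.36 FPKM in MHCII-lo). Ctsk, a cysteine protease best known from osteoclasts, was higher as well, with 13.41, 13.64 and 13.23 FPKM in MHCII-hi, against 1.53, 2.74 and 1.99 FPKM in MHCII-lo. Ctsl, which replaces cathepsin S in thymic epithelium and was chosen after its values were seen, was the third gene higher in MHCII-hi (log2 fold change 0.60).

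Of 7 tested inhibitors of cysteine proteases, 4 were higher and 3 lower. The 4 were the stefins Stfa1, Stfa2, Stfa3 and Stfa2l1, at log2 fold changes of 4.37 to 5.72. They are related copies whose sequences were not compared here, and any reads shared between them would make single values uncertain. Cst3, cystatin C, a secreted inhibitor of cathepsins including cathepsin S, is named here because of its values. It was lower, with 128.44, 126.47 and 123.65 FPKM in MHCII-hi, against 208.40, 215.96 and 211.62 FPKM in MHCII-lo, a log2 fold change of −0.74.

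Of 7 genes of class II traffic and turnover, 2 were higher and 3 lower. Marchf1, the ligase that marks surface class II for removal and that was matched through its older symbol, was lower in MHCII-hi (5.27 ± 0.168 FPKM, against 7.74 ± 0.388 FPKM in MHCII-lo). The lysosomal membrane gene Lamp1 (log2 fold change −0.72) and Arl8b (−0.25), a GTPase gene of lysosome movement chosen after its values were seen, were lower, and Lamp2 (0.27) and the late endosome GTPase gene Rab7 (0.43) were higher. Of 6 genes that lead from interferon gamma to Ciita, 2 were higher and 3 lower. The receptor gene Ifngr1 (log2 fold change −0.30), the kinase gene Jak2 (−0.37) and Irf1 (−0.43), a transcription factor that interferon induces, were lower. The kinase gene Jak1 (0.50) was among those higher.

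**Figure D4:**
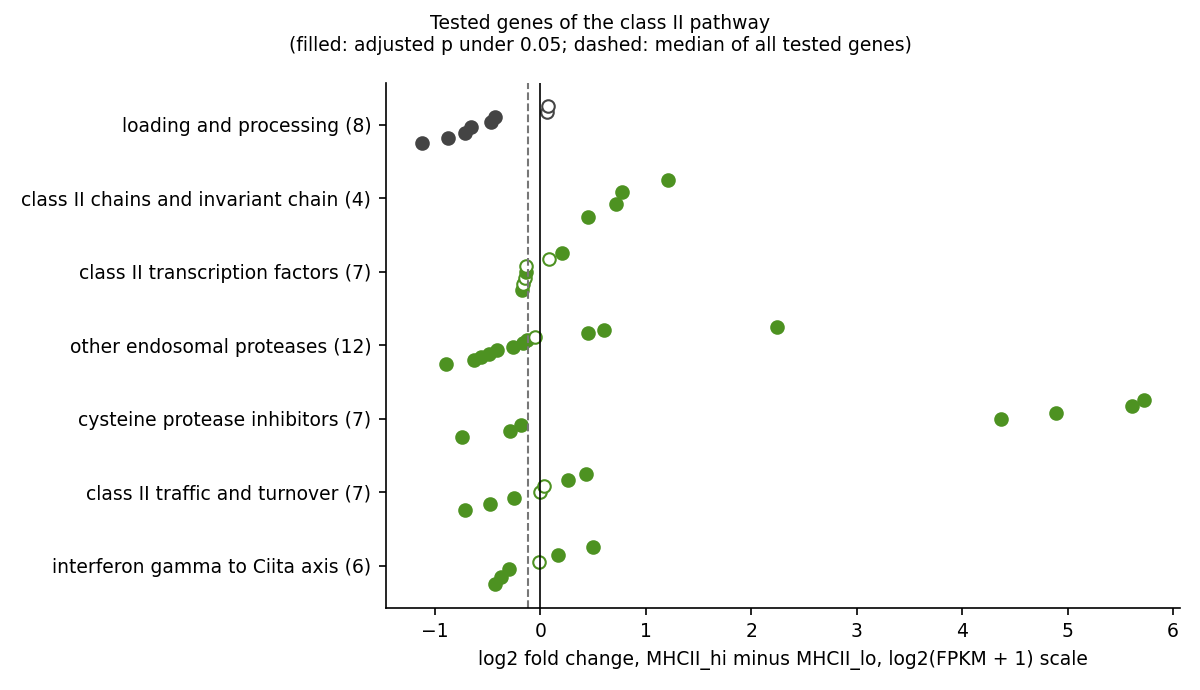
Log2 fold change (MHCII-hi minus MHCII-lo) of each tested gene, by list, with the number of tested genes in parentheses; filled points have a limma adjusted p under 0.05 and the dashed line is the median of all tested genes. The 8 loading and processing genes lie from −1.12 to 0.08, the class II chains and Cd74 from 0.45 to 1.21, and the stefins from 4.37 to 5.72.

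By a rule of likeness, the 3 tested genes whose profile over the 6 libraries lay nearest to that of H2-DMa (Euclidean distance of centred log2 values) were P2rx7, Kmo and Ahnak, at distances of 0.108 to 0.114. P2rx7, an ATP-gated channel, had 1.80, 1.87 and 1.97 FPKM in MHCII-hi, against 5.32, 5.29 and 5.43 FPKM in MHCII-lo. Kmo, an enzyme of tryptophan breakdown, averaged 1.01 ± 0.0458 FPKM in MHCII-hi and 3.15 ± 0.202 FPKM in MHCII-lo. Ahnak, a large scaffold protein, averaged 9.02 ± 0.284 FPKM in MHCII-hi and 20.8 ± 0.222 FPKM in MHCII-lo. With 2 groups of 3 libraries, such likeness mostly reflects a similar difference between the fractions.

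Markers of other blood cells differed between the same libraries. All 5 tested of 9 dendritic cell markers were lower in MHCII-hi, with a summed level of 23.9 to 24.4 FPKM, against 61.8 to 63.6 FPKM in MHCII-lo. Irf8 was the largest part of this sum, at a mean of 12.3 FPKM in MHCII-hi and 42.1 FPKM in MHCII-lo. Of 7 tested monocyte and macrophage markers, out of 11, 5 were lower and 1 higher, and the 11 summed to 409 to 434 FPKM in MHCII-hi and 645 to 652 FPKM in MHCII-lo. Most of that sum was Ly6c2, at a mean of 315 FPKM in MHCII-hi and 475 FPKM in MHCII-lo. All 11 neutrophil markers were higher, and they took 14.9 to 15.0% of summed FPKM in MHCII-hi libraries and 2.58 to 2.61% in MHCII-lo libraries. B cell markers summed to 16.6 to 17.2 FPKM in MHCII-hi and 13.0 to 14.9 FPKM in MHCII-lo, with 1 of 2 tested higher. Plasma cell markers summed to 314 to 322 FPKM in MHCII-hi and 248 to 251 FPKM in MHCII-lo, with 3 of 5 tested higher. Most of this was Jchain, at a mean of 229 FPKM in MHCII-hi and 181 FPKM in MHCII-lo. No marker of these lists was at 0 in all libraries. Levels within a list were uneven: Xcr1, Batf3 and Zbtb46 of the dendritic cell list stayed under 1 FPKM, as did Ms4a1 and Pax5 of B cells. Others of the same lists were higher in level. Flt3 of the dendritic cell list averaged 7.64 FPKM in MHCII-hi and 12.1 FPKM in MHCII-lo. Cd79a of the B cell list averaged 4.76 FPKM in MHCII-hi and 2.41 FPKM in MHCII-lo, and Cd79b 9.54 and 10.2 FPKM. The part of these cells in the levels of the 8 genes was not tested.

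Of 11 stem cell markers, 5 could be tested, 3 of them higher and none lower. Kit averaged 13.9 ± 0.318 FPKM in MHCII-hi and 14.3 ± 0.175 FPKM in MHCII-lo. Ly6a, the gene of Sca-1, averaged 10.4 ± 1.07 FPKM in MHCII-hi and 10.4 ± 1.27 FPKM in MHCII-lo. Both stood above the median of tested genes, 7.02 FPKM, whereas Procr, Slamf1, Mecom, Fgd5, Tek and Hoxb5 had means under 1 FPKM in both fractions. Across tested genes, Pearson correlations of log2 values were 0.991 to 0.992 within MHCII-hi, 0.992 to 0.993 within MHCII-lo and 0.945 to 0.947 between fractions.

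None of the 8 genes changed its direction or its call under any of the other settings tried. With a pseudocount of 5 in place of 1, H2-Oa moved to a log2 fold change of −0.24 and Lgmn to −0.27, both still called. Median-ratio scaling moved the median of all tested genes to a log2 fold change of −0.01, against −0.12 as deposited. Relative to the median gene, the log2 fold changes were −0.76 for Ifi30, −0.59 for Ctss, −0.54 for H2-DMb1, −0.35 for H2-Oa and −0.31 for Lgmn. H2-Ob stood at 0.20 and H2-DMb2 at 0.19 above the median gene. With neutrophil markers left out of the total, H2-DMa was at −1.01, Ifi30 at −0.76, Ctss at −0.59 and Lgmn at −0.33.

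**Figure D5:**
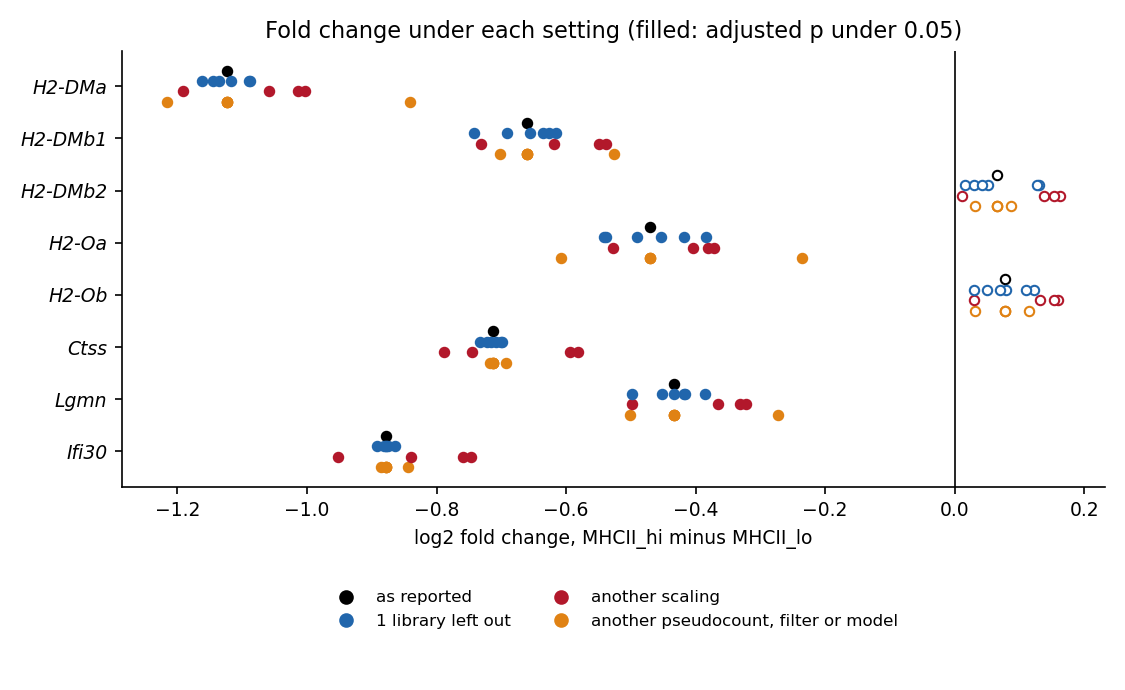
Log2 fold change (MHCII-hi minus MHCII-lo) of each gene as reported and under 15 or 16 other settings, coloured by the kind of setting; filled points have a limma adjusted p under 0.05. H2-DMa lies between −1.22 and −0.84 in the other settings and Ifi30 between −0.95 and −0.75, and every point of H2-DMb2 and H2-Ob is open and above 0.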

How the data were processed

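RNA was measured in 3 MHCII-hi and 3 MHCII-lo libraries, grouped and numbered by the labels. Per the labels' protocols, RNA came from a column kit and libraries from a stranded mRNA kit. The submitters' processing notes name fastp, HISAT2, StringTie and GRCm38 (mm10), and versions and strand settings are not known here. The authors deposited 1 value per gene and library, inferred to be FPKM from the 2 decimals, the unequal sums (327364 to 346651) and StringTie. No step of 1 fragment was found in low values (best mean cosine 0.0845 to 0.104), so depth is unknown and no count model was used.

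Where a symbol was repeated (70 rows dropped), the row with the highest mean was kept. Genes averaging 1 FPKM or more were compared as log2(FPKM + 1) with limma 3.58.1 (R 4.3.3), intensity trend, group as the only term. The fit was also run on simulated data with normal noise, in which 50 of 12037 genes were changed at each fold tried. It recovered 42% of them at 1.25-fold and 92% at 2-fold, with 5 false calls among 167. In the real data 60.9% of genes were called, so the simulation does not test the fit under such broad change or its dependence on scaling. Positions and transcripts are from GENCODE (GRCm38), aligned with Biopython 1.88. Other steps used Python 3.11.15, pandas 2.3.3, numpy 2.4.6 and scipy 1.17.1.

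The 8 genes and all lists were chosen with earlier results of these data known. Besides the 8 genes, the rule named the 4 called genes with the smallest p of each pathway list. It also named fixed class II genes and the 3 profiles nearest to H2-DMa. Ctsl, Cst3 and Arl8b were added after their values were seen. Genes that overlap a member or match the promoter letters, and single markers of the cell type lists, are named outside that rule. Alternatives changed the pseudocount, the filter, the scaling or the variance trend, or added a replicate block; others were leaving out each library and summing the H2-DMb genes. For ratios, leaving out the pseudocount or a library was added after the data were seen. Single values of some listed genes are not reported here.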

Additional observations from a re-analysis of the deposited data

How the results depend on the processing

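The counts of 6 of the 8 genes lower and 0 higher held under all alternatives that kept the 8 genes. The filter at 5 FPKM drops H2-DMb2, H2-Oa and H2-Ob, and 5 of the remaining genes were lower. With the H2-DMb genes summed, 6 of 7 features were lower. The limma adjusted p of H2-Oa, the least certain call, ranged from 0.00327 to 0.0216, and that of H2-DMb2 and H2-Ob never fell below 0.132. Among all genes, lower calls numbered 4883 as reported, 3123 after median-ratio scaling and 3243 with neutrophil markers left out of the total, so that the share of calls that were higher was 33.4, 52.1 and 50.1%. It was 25.4% with each library summed to 1 total. Without single libraries, 2234 to 2266 genes were higher and 4338 to 4500 lower. Deviations from the mean of a fraction correlated at r of −0.0533 to −0.0435 between same-numbered libraries and 0.00425 to 0.0408 between the others. Correlations this small, of deviations from means of 3 libraries, do not decide whether the numbers pair libraries. A fit with the replicate block called 2305 genes higher and 4659 lower and changed no call among the 8 genes.

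Of class II transcription factors, 2 were higher and 0 lower after median-ratio scaling and with neutrophil markers left out of the total, and 2 were higher and 1 lower without a filter and after quantile normalization. The block left 1 lower, and leaving out single libraries gave 1 to 2 lower, with 1 when MHCII-hi replicate 2 or 3 or MHCII-lo replicate 3 was left out. Only 1 of the protease inhibitors was lower after median-ratio scaling, and only 1 gene of the interferon gamma list was higher with each library summed to 1 total. For the log2 ratio of H2-DMa to H2-Aa, the difference of −1.90 became −2.06 with a pseudocount of 0.1 and −2.08 with none. For H2-Oa to H2-Ob, −0.55 became −0.75 with no pseudocount. No ratio changed direction without any 1 library.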
